A study of Mus musculus with 3 samples.

Results

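The renin-angiotensin genes in sorted skin macrophages were represented by 8 genes: Ren1, Agt, Ace, Agtr1a, Agtr1b, Agtr2, Atp6ap2, and Mas1. Each of them was covered by 1 probe spotted once per array, found through the RefSeq transcript that the array file gives for the probe, so that 8 of 55681 non-control probes and 8 of 19752 named genes are described. The set was drawn up around Ren1, which had the largest decrease from P42 to P69 among genes measured on both arrays. The values of Ren1 in that comparison are therefore a description of how the set was chosen.

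Macrophages with the surface phenotype CD11b+Gr1-F4/80+ were isolated by FACS from dispersed backskin of CD1 mice, an outbred stock of which the study used females, at postnatal days 42 (P42), 55 (P55), and 69 (P69). These ages correspond to early, mid, and late telogen, the resting phase of the hair cycle, and no animal was treated or carried an engineered allele. RNA of 3 littermates was pooled per age, amplified as a whole transcriptome, labeled with Cy3, and hybridized to 1 array. With 1 array per age no difference can be set against a spread between mice, and no test was made.

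Renin cleaves angiotensinogen (Agt) to angiotensin I, and angiotensin-converting enzyme (Ace) trims this decapeptide to the active octapeptide angiotensin II. Angiotensin II acts through the type 1 receptors (Agtr1a and Agtr1b in the mouse) and the type 2 receptor (Agtr2), while Mas1 is the receptor for the shorter angiotensin-(1-7). Atp6ap2 encodes the prorenin receptor, which also serves as an accessory subunit of the vacuolar proton pump. The system is best known for the control of blood pressure, with renin released by juxtaglomerular cells of the kidney, and macrophages express ACE and respond to angiotensin II.

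Signals are the background-corrected intensities of the scanner software, with the error that this software gives for the spot. Levels are log2 signals relative to the 75th percentile of the array, which was 414 at P42, 497 at P55, and 927 at P69. A probe was taken as measured where the software called it well above background, which held for 59.7% to 71.4% of probes per array. A change is a difference of levels, with a technical SE from the spot errors of both arrays. For probes spotted repeatedly, the median SD of log2 signals was 0.12 to 0.14 per array, and 0.24 to 0.28 among dim probes with signals comparable to those of Ren1 at the later ages. Neither error covers variation between mice, sorts, or amplifications. In pooled sorted cells, a smaller number of cells expressing a gene and less RNA per cell cannot be told apart.

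The assignment of the P55 and P69 arrays is uncertain. The log2 table deposited by the authors lists them the other way round from the scanner files: its change from P42 to P69 matched the scanner file labeled P55 within 0.05 of a constant offset (log2) for 99.8% of 36390 probes, and the scanner file labeled P69 for 3.07% of 36396 probes. The scanner files are used here as labeled. With the exchange, each P55 value below belongs to P69 and each P69 value to P55.

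The sequences in front of the genes are shown for the members that were measured on all arrays and differed by 2-fold or more between P42 and P69, to set the promoters of Ren1, Agt, and Atp6ap2 side by side. They come from RefSeq (GRCm38.p6) and end at the last base before the annotated start, with 250 bases for Ren1 and 100 bases for the others. Capitals mark the motifs searched on both strands, the TATA box (TATAAA), the CCAAT box (CCAAT), and the half-site of the cAMP response element (TGACG).
Ren1, chr1:133350424-133350673, plus strand: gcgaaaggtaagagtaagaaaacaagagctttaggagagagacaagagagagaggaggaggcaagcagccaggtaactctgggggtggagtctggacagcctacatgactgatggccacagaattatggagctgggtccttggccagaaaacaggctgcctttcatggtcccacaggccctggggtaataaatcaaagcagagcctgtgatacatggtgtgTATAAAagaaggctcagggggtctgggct
Agt, chr8:124569707-124569806, minus strand: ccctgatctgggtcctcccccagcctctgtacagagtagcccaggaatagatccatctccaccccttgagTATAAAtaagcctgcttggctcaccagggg
Atp6ap2, chrX:12587659-12587758, plus strand: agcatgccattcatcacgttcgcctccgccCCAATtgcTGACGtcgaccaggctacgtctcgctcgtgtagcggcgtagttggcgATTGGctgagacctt

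Within 250 bases before the start, Ren1 and Agt held TATAAA, beginning 29 and 30 bases before it, and held neither CCAAT nor TGACG. Atp6ap2 had no TATAAA. It held CCAAT 3 times in these 250 bases, on either strand, and TGACG once, 62 bases before the start. Among 32851 RefSeq promoter windows of this length, 12.4% held TATAAA, 33.8% CCAAT, and 17.8% TGACG. Of the remaining members, Ace held TATAAA on the opposite strand at its first start and CCAAT at its second, Agtr1b held both TATAAA and CCAAT, and Agtr2 and Mas1 held CCAAT. Agtr1a was not in the promoter table. These matches describe the letters in the windows, and the arrays did not measure factor binding.

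Ren1, the protease that starts the cascade, was bright on the P42 array and close to background on both later arrays. Its signal was 461 ± 46.3 (software error) at P42, 50.2 ± 8.45 at P55, and 46.2 ± 7.96 at P69. The P42 signal was 24.2 times the lowest signal called well above background on its array, whereas the P55 and P69 signals were 1.67 and 1.61 times that limit. All 3 spots were well above background, and none was marked as an outlier.

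The level of Ren1 was 0.16 at P42, -3.31 at P55, and -4.33 at P69. It was thus 22.3-fold lower at P69 than at P42 (log2 -4.48, SE 0.29) and 11.0-fold lower at P55 (log2 -3.46, SE 0.28). Both changes share the P42 array, so they are not independent of each other. Between the later arrays Ren1 differed by -1.02 (SE 0.35) on the log2 scale, and without scaling the decrease from P42 to P69 was -3.32 and that from P42 to P55 -3.20. The 2 later signals thus lay within their errors of each other, and their difference in level arises in the scaling, through the larger 75th percentile of the P69 array.

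No other of the 14162 genes measured on both arrays had a lower value than Ren1 in P69 against P42, and the next was Ifi44l at -4.14. In P55 against P42, 9 of 13249 measured genes were lower than Ren1. At the 10-fold threshold that the methods name, 0.464% of genes with a value were lower in P69 against P42 and 0.316% in P55 against P42, and Ren1 was the 1 member past it in both. The shares of genes higher by 10-fold were 0.668% and 1.12%, with 0 members. Between the later arrays 0.128% were lower and 0.0539% higher by 10-fold, again with 0 members. In a block of 9 rows and 5 columns centered on the Ren1 spot, 32 other spots had a median change of -0.02 from P42 to P69. They ranged from -3.64 to 3.85, and 31 spots had a median of 0.05 from P42 to P55. A fault of the Ren1 spot itself was not tested.

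**Figure D1:**
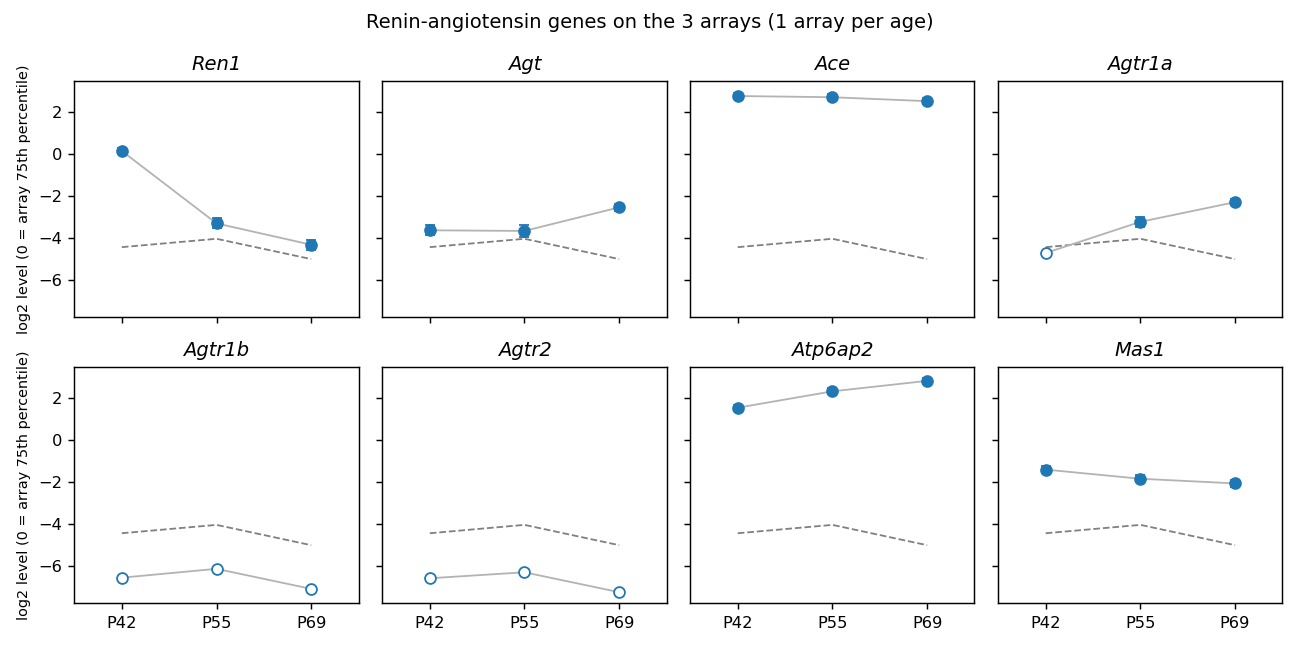
Levels of the 8 genes on the 3 arrays, as log2 signal relative to the 75th percentile of the array (y axis) against age (x axis). Filled points were well above background, open points were not, bars show the software's error of the spot, and the dashed line is the lowest level called well above background on each array. Ren1 drops from 0.16 to -4.33, Agtr1a crosses the dashed line after P42, and Agtr1b and Agtr2 stay below it.

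Mice of some strains carry a second renin gene, Ren2, whose transcript is nearly identical to that of Ren1 and which the C57BL/6 reference lacks. The probe sequences are not in the files used here, so whether the Ren1 probe also binds the Ren2 transcript could not be examined. The probe named for Ren2 did not follow that of Ren1. Its signal was 12.6 ± 4.51 at P42 and 14.5 ± 6.43 at P69, neither well above background, and 36.3 ± 7.51 at P55, where it was 1.20 times the limit. Ren2 was therefore dim on the array where Ren1 was bright, and at least 1.59-fold higher at P55 than at P42.

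Agt, which encodes the sole substrate of renin, was dim on the first 2 arrays and higher on the array labeled P69. Its signal was 33.3 ± 5.70 at P42, 39.1 ± 7.72 at P55, and 159 ± 17.1 at P69, well above background each time. The level was 2.14-fold higher at P69 than at P42 (log2 1.10, SE 0.29) and differed by -0.03 (SE 0.38) between P55 and P42, less than the spot error. Agt and Ren1 were thus at their highest on different arrays. The increase at P69 depended on the assignment of the arrays, with -0.03 when they were exchanged, and the change was 0.13 with normexp background correction.

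Ace, the enzyme that forms angiotensin II, was bright on all arrays and varied little. Its signal was 2845 ± 285 at P42, 3278 ± 328 at P55, and 5371 ± 537 at P69, and its level was 2.78, 2.72, and 2.53, respectively. The change was -0.25 (SE 0.20) from P42 to P69 and -0.06 (SE 0.20) from P42 to P55. Its sign depended on the scaling, with 0.27 and 0.50 relative to the median of the array, and 0.92 and 0.20 without scaling.

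The receptors of angiotensin II differed in whether they were measured at all. Agtr1a, the main type 1 receptor of the mouse, had a signal of 15.7 ± 4.75 at P42, which was not well above background, and of 52.9 ± 8.70 at P55 and 189 ± 20.0 at P69, which were. It was at least 2.31-fold higher at P55 than at P42 (log2 1.21) and at least 4.44-fold higher at P69 (log2 2.15), and these bounds exceed the increases of the other members under the scaling used. Between the later arrays it differed by 0.94 (SE 0.28). With normexp background correction the changes were 0.56 at P69 and 0.20 at P55, below those of Atp6ap2 (1.33 and 0.74), so that this order is lost.

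Agtr1b, the second type 1 receptor, had signals of 4.37, 7.03, and 6.76 at P42, P55, and P69, and Agtr2 had signals of 4.29, 6.27, and 6.06. On each array both lay at 0.21 to 0.24 times the lowest signal called well above background, and no change is given. Mas1, the receptor of angiotensin-(1-7), was well above background throughout, at 157 ± 16.4 at P42, 139 ± 15.4 at P55, and 222 ± 23.1 at P69. Its level changed by -0.66 (SE 0.21) from P42 to P69 and by -0.44 (SE 0.22) to P55, while its unscaled signal was highest at P69 (log2 0.50). With median scaling the change of Mas1 was -0.14 at P69 and 0.12 at P55.

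Atp6ap2, the prorenin receptor, was bright on all arrays and highest at P69, with a signal of 1218 ± 122 at P42, 2516 ± 252 at P55, and 6639 ± 664 at P69. It was 2.43-fold higher at P69 than at P42 (log2 1.28, SE 0.20), 1.72-fold higher at P55 (log2 0.78, SE 0.20), and 0.50 (SE 0.20) higher at P69 than at P55. Each step is larger than the spot error. In P69 against P42, 2066 of 14162 measured genes were higher by more than Atp6ap2.

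Counted over the set, 6 of the 8 members had a value. In P69 against P42, 1 member was lower by 2-fold or more, where 20.7% of 16164 genes were, and 3 were higher, where 22.2% were. In P55 against P42, 1 was lower and 1 higher, compared to 16.9% and 29.1% of 15843 genes. Between the later arrays, 1 was lower and 1 higher at P69, compared to 11.3% and 7.85% of 14846 genes. The median change of the members was 0.42 in P69 against P42 and -0.04 in P55 against P42, beside 0.15 and 0.22 over all genes. The 3 members higher at P69 are 50% of the 6 with a value, a count too small to set against the share of all genes, and Ren1 was included because of its decrease.

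**Figure D2:**
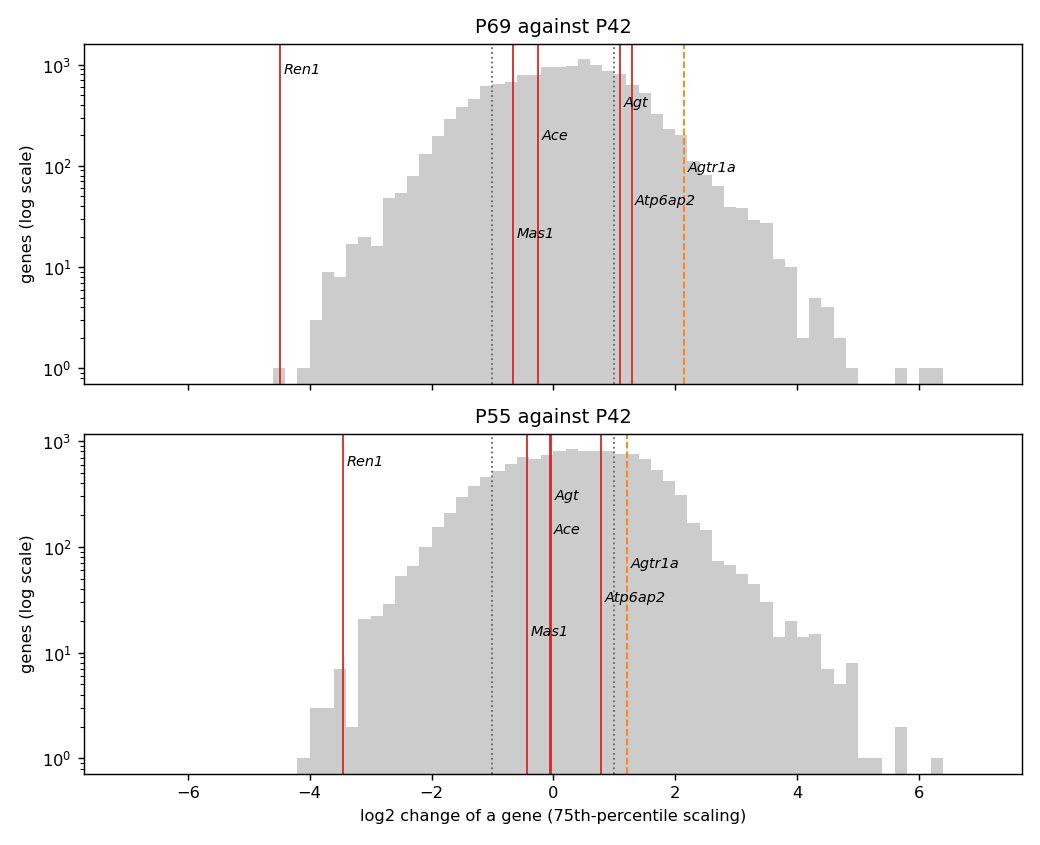
Log2 changes from P42 to P69 (top) and from P42 to P55 (bottom) for all genes well above background on both arrays, as numbers of genes per 0.2 bin on a log scale, with the members marked by vertical lines. Solid red lines were measured on both arrays, the dashed orange line of Agtr1a is a lower bound, and the dotted lines mark a 2-fold change. Ren1 lies at the lower end of the top panel at -4.48, while Agt, Ace, Atp6ap2, and Mas1 lie between -0.66 and 1.28 there.

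The genes with the profile most like that of Ren1 over the 3 arrays, by Euclidean distance of levels centered on their mean among 13078 genes measured on all arrays, were Gm10375 (0.51), Slc30a4 (0.56), Syce1 (0.62), Slc24a2 (0.76), and Psg28 (0.76). Slc30a4 encodes a zinc transporter, Syce1 a protein of the meiotic synaptonemal complex, and Slc24a2 a sodium, calcium, and potassium exchanger. Gm10375 had levels of 1.03, -2.63, and -2.95 at P42, P55, and P69. Profiles near that of Atp6ap2 were more closely matched, with Usp14 (0.01), Echdc1 (0.01), Mrps22 (0.01), Slc33a1 (0.01), and Safb (0.02), and so were those near Agt, with Pkd2l2 (0.02), Msi2 (0.02), Supt20 (0.04), Specc1l (0.04), and Gja1 (0.04). A distance over 3 arrays separates few profiles, and genes are not independent replicates.

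In the RefSeq annotation (GRCm38.p6) Ren1 lies between Kiss1 and Etnk2, with Golt1a and Sox13 next in order. The level of Kiss1, which encodes the peptide kisspeptin, was -1.59 at P42, -3.35 at P55, and -3.60 at P69, a change of -2.01 from P42 to P69. Etnk2, an ethanolamine kinase, had levels of -0.17, -2.30, and -1.71, a change of -1.54 to P69 and of -2.13 to P55. Both adjacent genes were thus lower on both later arrays by more than 2-fold, less than Ren1 was. Each is given by its brighter probe alone, since the other probe gave no value in either comparison. Of all genes with a value, 20.7% were lower by 2-fold or more in P69 against P42 and 16.9% in P55 against P42. Golt1a changed by -0.97 to P69 and -0.23 to P55, and Sox13 by -0.46 and 0.72.

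**Figure D3:**
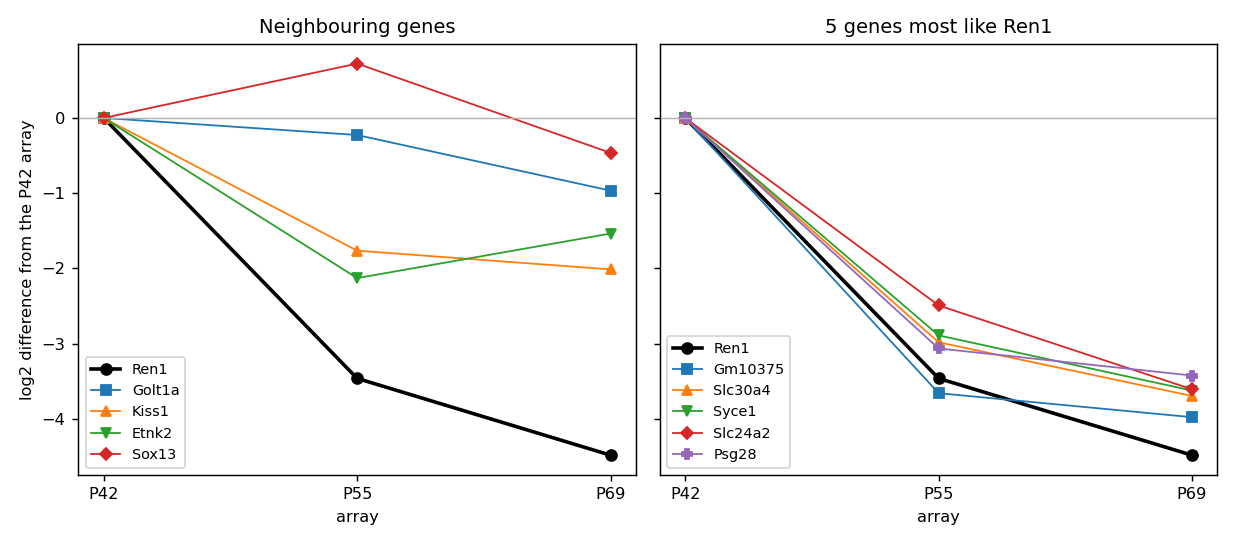
Log2 difference from the P42 array (y axis) on each array (x axis) for Ren1 (black) beside the 2 genes on either side of it in the genome (left) and the 5 genes with the most similar profile (right). Kiss1 and Etnk2 are lower on both later arrays, at -2.01 and -1.54 at P69, while Sox13 is higher at P55 by 0.72.

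Other genes of the pathway were taken from 7 lists with 48 genes, all of them on the array. In P69 against P42, 7 of 41 genes with a value were lower by 2-fold or more (17.1%) and 6 were higher (14.6%), and in P55 against P42 8 of 42 were lower (19%) and 7 higher (16.7%). The shares over all genes are those given above. The median change over the lists was 0.13 and 0.45.

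Among the renin paralog and other enzymes that can form angiotensins, Ctsd, the lysosomal protease cathepsin D, was higher at P69 (log2 1.32) and P55 (1.19). Cma1, a mast cell chymase that converts angiotensin I, was higher by 0.89 and 0.69. Ctsg was well above background at P69 alone, as a bound of 0.40.

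Of 10 enzymes that trim or degrade angiotensins, Prep, a prolyl endopeptidase, was higher by 1.17 at P69 and 1.37 at P55. Enpep, the aminopeptidase that produces angiotensin III, had changes of -0.57 and -1.07. Mme, which encodes neprilysin, was measured at P55 alone, with a bound of 1.61 over P42. The other 7 differed by less than 2-fold in both comparisons, from -0.68 to 0.57 at P69.

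Among the receptor partners and signal transducers, Gnaq, the G protein subunit that couples the type 1 receptor to phospholipase C, was higher by 1.37 at P69 and 1.63 at P55. Arrb2, a beta-arrestin, was lower, with -1.44 and -1.32, whereas Arrb1 changed by 0.26 and 0.77. Mtus1, which binds the type 2 receptor, changed by 1.49 at P69 and -0.65 at P55. Agtrap, which promotes internalization of the type 1 receptor, changed by 0.38 and 0.53, and Mrgprd was never called well above background.

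The 4 partners of the prorenin receptor all differed by less than 2-fold at P69, unlike Atp6ap2 (1.28). At P55 Atp6ap2 was below 2-fold too (0.78), among the values of its partners. The contrast is therefore lost when the arrays are exchanged. Atp6ap1, the other accessory subunit of the proton pump, changed by -0.10 at P69 and 0.54 at P55. Of the proteases that process the prorenin receptor, Furin changed by -0.10 and 0.74, Adam19 by 0.06 and 0.81, and Mbtps1 by 0.70 and 1.34. The change of Mbtps1 rests on its brightest probe, since its other probe gave -0.01 and 0.26.

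In the aldosterone arm, Nr3c2, the mineralocorticoid receptor, was lower at P69 (-1.12) and not well above background at P55 (a bound of -2.64). Cyp11b2, aldosterone synthase, was lower as well, with -2.04 and a bound of -1.90, and Cyp11b1 was never called well above background. Hsd11b2 and Sgk1 changed by less than 2-fold. In the kinin arm, which ACE also acts on, the bradykinin receptor Bdkrb2 was lower, with -1.20 and -1.05, and Klk1, tissue kallikrein, fell below the call at P69 (a bound of -2.26). Kng2 and Bdkrb1 were never called well above background, and Kng1 was called at P69 alone.

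The 12 listed genes known to act on renin transcription or release were measured on each array. Vdr, the vitamin D receptor, which represses renin transcription in the kidney, had the largest change, with levels of -3.92 at P42, 0.93 at P55, and -0.30 at P69 and changes of 3.62 to P69 and 4.84 to P55. Hoxd10, a homeodomain factor of the renin promoter, changed by -1.43 and -1.21, and the coactivator Ep300 by 1.14 and 0.99, each with 1 probe. For 3 further genes the probes disagreed. Adrb1, the beta-adrenergic receptor that drives renin release, changed by -1.10 and -1.48 by its brightest probe and by 2.40 and 1.80 by the other, so no direction can be given. Rbpj, the nuclear effector of Notch, changed by -0.33 and -1.37 by its brightest probe and by 0.99 and 0.21 by the other. Nr1h3, the liver X receptor alpha, changed by 0.68 and 1.49 and by -0.19 and 0.18, respectively. The other 6 differed by less than 2-fold in both comparisons by their brightest probe, while the other probe of Gja5 passed 2-fold at P55, with a bound of -1.11. Vdr is also expressed in keratinocytes, whose markers were higher on the same arrays, and their part in its change was not tested.

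**Figure D4:**
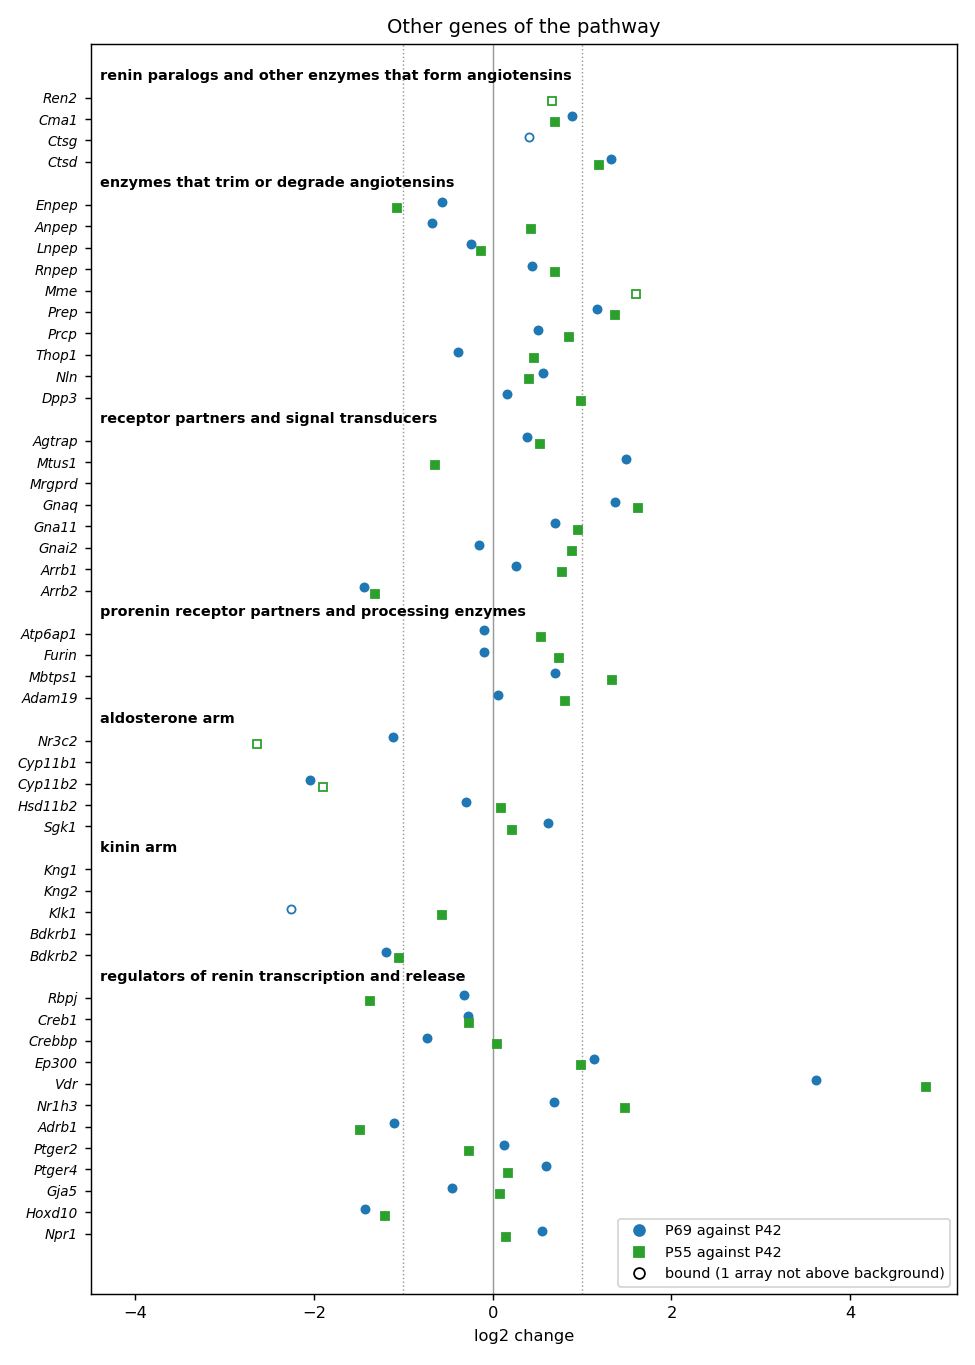
Log2 changes from P42 to P69 (blue circles) and from P42 to P55 (green squares) of the 48 other pathway genes, grouped by list. Open symbols are bounds, genes without a symbol had no value, and the dotted lines mark a 2-fold change. Vdr lies farthest to the right at 3.62 and 4.84, and Nr3c2, Cyp11b2, and Klk1 lie to the left.

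The macrophage label was checked against 13 marker genes on the array, all of which were well above background on each array, Adgre1 (F4/80), Itgam (CD11b), and Csf1r among them. Their summed level, as multiples of the 75th percentile, was 762 at P42, 770 at P55, and 491 at P69, and their median change was -0.06 in P69 against P42 and 0.06 in P55 against P42. Itgam changed by -1.10 at P69 and -0.23 at P55 by its brightest probe, and Adgre1 by 0.33 and 0.69. The other probes of Itgam were lower as well, by -0.79 and -0.13 at P69 and by -1.06 and -1.08 at P55. Markers of other skin cells were measured as well. Since 1 bright probe can make up most of a summed level, each sum is also given without the brightest gene of its list, a choice made after the data were seen. Without Itgam the macrophage sum was 267 at P42, 347 at P55, and 260 at P69. Of 15 keratinocyte genes, 14, 15, and 15 were well above background at P42, P55, and P69. By 2-fold or more, 11 were higher at P69 (73.3%) and 12 at P55 (80%), beside 22.2% and 29.1% of all genes. Their summed level was 279, 413, and 278, most of it at P42 from 1 probe of Trp63, and without Trp63 it was 17.6, 149, and 115, higher on both later arrays. The other probe of Trp63 was higher as well, by 4.04 at P69 and 3.15 at P55.

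Renin-producing cells are modified smooth muscle cells of arterioles, so their markers and those of mural cells are given beside Ren1 and Agtr1a. Of 6 renin cell genes, 5 were well above background on every array, while Akr1b7 was not on any. Their median change was -0.26 to P69 and 0.08 to P55. Of the 5 with a value, 0 were lower by 2-fold or more in either comparison, beside 20.7% and 16.9% of all genes. In each comparison 2 were higher, beside 22.2% and 29.1%, and 5 genes are too few to set against these shares. The summed level of the renin cell list was 86.9, 88.9, and 58.4, nearly all of it from the broadly expressed Crip1. Without Crip1 the sum was 2.85, 4.87, and 9.76, and most of its P69 value came from Rgs5. Rgs5, which is on both lists, and Nt5e were higher at P69, by 2.67 and 2.35. Gja4, Gja5, and Crip1 were lower at P69 under the scaling used, by -0.26, -0.46, and -0.79. The other probe of Gja5 gave -0.06. The list thus had no common direction under this scaling, but the sign of changes this small depends on it, as for Ace and Mas1. Of 11 mural and smooth muscle genes, 11, 10, and 11 were well above background. Their summed level was 373, 330, and 208, nearly all of it from Mcam, and without Mcam it was 8.75, 15.8, and 25.1. At P69 5 of them were higher by 2-fold or more and 0 lower, beside 22.2% and 20.7% of all genes. At P55 4 were higher and 2 lower, beside 29.1% and 16.9%. Acta2 (2.17 and 1.61) and Notch3 (1.45 and 1.17) were higher on both arrays, and Myh11 (-1.74) and Kcnj8 (a bound of -1.35) were lower at P55. The part of these cells in the changes of Ren1 and Agtr1a was not tested.

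Endothelial cells are a major source of ACE. All 11 endothelial genes were well above background on each array, with a summed level of 45.2, 32.6, and 43.0 (32.2, 19.5, and 29.8 without Egfl7) and a median change of 0.02 at P69 and -0.82 at P55, and their part in the level of Ace was not tested. Fibroblasts and adipocytes make angiotensinogen. Of 11 fibroblast genes, 10, 9, and 11 were well above background, with a summed level of 94.4, 50.6, and 52.8 (60.0, 35.1, and 36.1 without Col3a1). The sums rest on the brightest genes, and the median change of the list was 0.37 at P69 and -0.53 at P55. By 2-fold or more, 3 fibroblast genes were higher and 3 lower at P69, beside 22.2% and 20.7% of all genes. At P55 2 were higher and 3 lower, beside 29.1% and 16.9%. The list is too short to set against these shares. Of 7 adipocyte genes, 6, 5, and 4 were well above background. Their summed level was 33.3, 41.8, and 32.6, which became 1.61, 2.21, and 2.82 without Fabp4. The adipocyte genes Lep on all arrays and Adipoq on both later arrays were not well above background, and the part of both cell types in the change of Agt was not tested.

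For mast cells, the source of chymase, 7, 3, and 8 of 9 genes were well above background, with a summed level of 4.19, 1.97, and 1.71 (1.01, 0.55, and 0.95 without Tpsb2), and Ms4a2 was not on any array. The remaining lists were those of neutrophils (4 of 7 genes on each array), T cells (7, 6, and 7 of 7), melanocytes (4, 5, and 5 of 5), and Schwann cells and nerve (6, 5, and 7 of 7). Their median changes at P69 were 0.18, 0.81, 1.88, and -0.80, respectively.

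**Figure D5:**
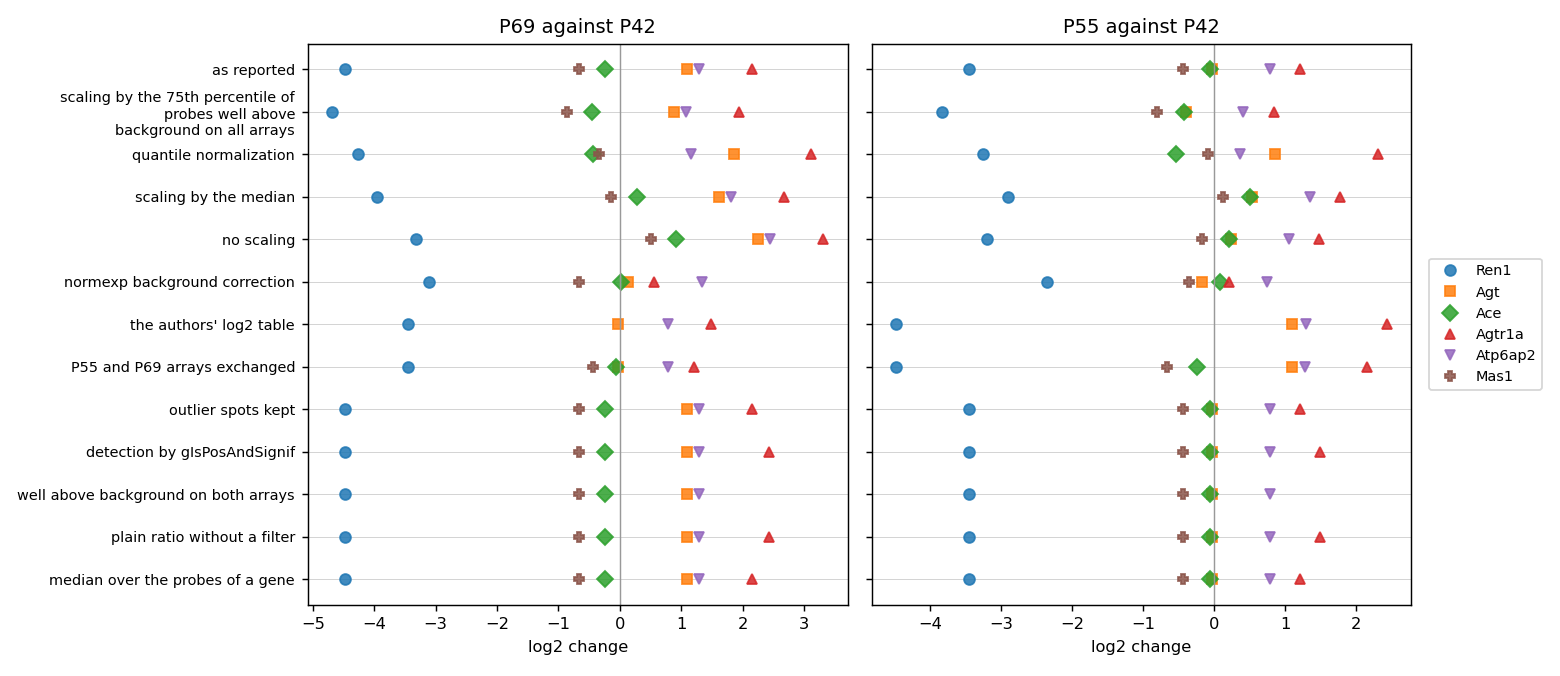
Log2 change of the 6 members with a value from P42 to P69 (left) and from P42 to P55 (right) under each processing of the same arrays (rows). Ren1 lies between -4.69 and -3.11 in the left panel and between -4.48 and -2.36 in the right panel. In every row it lies apart from the other members with a value there. Ace and Mas1, which have no value in the log2 table, lie on either side of 0 depending on the row.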

How the data were processed

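Gene expression was measured in sorted macrophages of 3 ages with 1 Agilent 1-color array (SurePrint G3) per age, and groups follow the age in the labels. The authors scanned the arrays, quantified them with Feature Extraction 10.7.3.1, and deposited for each spot a background-corrected intensity on a linear scale, not normalized between arrays. A second file deposited by the authors holds log2 values for part of the probes, each centered on its median over the arrays, and its scaling is not given in the sources used here. The study gives early telogen a slightly later day than the label, and the label is used.

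Here control spots and outlier spots (162 at P42, 274 at P55, and 281 at P69) were left out, spots of a probe were averaged, and log2 was taken relative to the 75th percentile. No spot was saturated. A probe counted as measured where the well-above-background call held for a share of 0.5 or more of its spots. With 1 side measured, the change is a bound, taken against the larger of the probe's signal on the other array and the lowest measured signal there. A bound is kept only where the measured side is the higher one, and otherwise no value is given. Probes were named through the RefSeq transcript (GRCm38.p6), which gave a symbol to 26056 probes, and a gene is represented by its brightest probe. Scaling could change every value, since the P69 array was brighter overall.

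No test was possible with 1 array per age, and precision is limited by the number of arrays. The members and gene lists were chosen with earlier results of these data known, and 2 pathway genes are not reported here. The genes named are the members, pathway genes past 2-fold or never well above background, the 5 genes nearest to a member measured on all arrays with a 2-fold difference, the neighbors of Ren1, and markers, and some others were added after their values were seen. The calculation was also tested on simulated data. Alternatives covered scaling, normexp background correction (offset 50), the deposited log2 table, exchanged arrays, outlier spots, filters, and the probe of a gene. Python 3.11.15, R 4.3.3, and limma 3.58.1 were used.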

Additional observations from a re-analysis of the deposited data

How the results depend on the processing

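Ren1 was lower by more than 2-fold in both comparisons under all 12 alternatives, and it was the 1 member lower by 2-fold or more under each of them. These are not 12 separate checks. In the log2 table Ace and Mas1 had no value, so fewer members were counted there. The settings for outlier spots, filters, and the probe of a gene could hardly move Ren1. It has 1 probe, spotted once, not marked as an outlier and well above background on each array. The log2 table and the exchanged arrays are nearly the same setting, and Ren1 was chosen for its decrease to P69. Its change from P42 to P69 was -3.96 with median scaling, -3.32 without scaling, -3.11 with normexp background correction, -3.46 in the authors' log2 table, and -3.46 with the P55 and P69 arrays exchanged. Its change from P42 to P55 was -3.83 with the 75th percentile of probes well above background on all arrays, -2.90 with median scaling, -2.36 with normexp, -4.48 in the log2 table, and -4.48 with the arrays exchanged. The number of members higher by 2-fold or more in P69 against P42 was 3. It was 2 with the 75th percentile of probes measured on all arrays and where both arrays had to be well above background, and 1 with normexp, in the log2 table, and with the arrays exchanged. In P55 against P42 it was 1, and 0 with the 75th percentile of probes measured on all arrays, with normexp, and where both arrays had to be well above background, 2 with median scaling and without scaling, and 3 in the log2 table and with the arrays exchanged. The increase of Agt to P69 was lost in the log2 table (-0.0271) and with the arrays exchanged (-0.0311), both smaller than the spot error. Agtr1a was higher under each of 11 alternatives in both comparisons, from 0.56 to 3.31 at P69. Where its value is a bound, the rule admits no decrease, so the sign there was fixed in advance. The plain ratio without a filter, which was free in sign, gave 2.43 at P69 and 1.49 at P55. Atp6ap2 was higher under each of 12 alternatives, from 0.78 to 2.45 at P69. The cause of these shifts was not tested beyond the settings themselves. No paired analysis was possible because each age has 1 array, and for the same reason no array could be left out. Signal over background limits Ren1, Agt, Agtr1a, and Ren2, whose dim signals lie near the detection limit.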
